A study of Homo sapiens with 12 samples.

Results

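A set of 10 kinase and kinase substrate genes that stand between ERK or mTOR and the translation machinery was followed in ribosome profiling data of the human colorectal cancer line HCT116. The 10 genes were chosen by symbol from the 15798 genes listed and not by their values. Earlier results of these data were known when the genes were chosen. They are the ribosomal S6 kinase (RSK) genes RPS6KA1, RPS6KA2 and RPS6KA3, the mitogen and stress activated kinase (MSK) genes RPS6KA4 and RPS6KA5, the S6 kinase (S6K) genes RPS6KB1 and RPS6KB2, the MAP kinase interacting kinase (MNK) genes MKNK1 and MKNK2, and PDCD4, whose protein is a substrate of S6K. The cells received 100 nM trametinib, which blocks MEK and thereby the activation of ERK, or its solvent DMSO for 24 h, and all were given cycloheximide shortly before lysis to arrest ribosomes. Randomly fragmented input RNA and RNase I resistant ribosome protected fragments (footprints) were sequenced, in 3 biological replicates each, which gave 4 groups and 12 libraries. All values come from 1 cell line and 1 time point, and they measure mRNA and ribosomes on mRNA, not kinase protein or phosphorylation.

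RSK, MSK and MNK proteins are activated by ERK, and MSK and MNK also by the stress kinase p38. RSK phosphorylates translation factors such as eIF4B and the ribosomal protein RPS6, MSK phosphorylates CREB and histones in the nucleus, and MNK binds the scaffold eIF4G and phosphorylates the cap-binding protein eIF4E. S6K is activated by the mTORC1 complex and PDK1, and phosphorylates RPS6, eIF4B, the eEF2 kinase and PDCD4. PDCD4 binds the helicase eIF4A and keeps it from the initiation complex, and its phosphorylation by S6K marks it for degradation.

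Counts inside open reading frames summed to 2276693 to 2845568 per input library and to 10127477 to 19181588 per footprint library, so that input was the less precise assay. Of the colorectal epithelial markers, EPCAM, CDH1, KRT8, KRT18 and CDX2 were present, whereas VIL1 and CDX1 had 0 counts and LGALS4 at most 1 count in input. The leukocyte, fibroblast and endothelial markers PTPRC, COL1A2 and PECAM1 had at most 1 input count per library, and COL1A1 was at 28.4 normalized counts in DMSO input. The pericyte marker RGS5 had up to 7 raw input counts in a DMSO library and up to 4 in a trametinib library. The ERK target DUSP6 fell by 7.63 on the log2 scale in trametinib input (edgeR quasi-likelihood test, Benjamini-Hochberg adjusted p = 3.31e-08) and was at 2.79 normalized counts there, against 589.6 in DMSO. DMSO replicate 1 stood apart: the deviations of its input and footprint libraries from their group means correlated at 0.84 across 5332 genes, against -0.16 to 0.35 in the other 5 input and footprint pairs. Several of the 10 genes shared in this, and their input and footprint changes are given with and without these libraries where leaving them out moved the log2 change by over 0.1. Leaving them out also raised the number of genes called (adjusted p under 0.05) among all 10663 tested. In input it went from 1641 higher and 1786 lower to 1767 and 1922, and in footprints from 2545 and 2727 to 3176 and 3247. Every library is scaled to the others, so that a change in translation common to all mRNAs cannot be seen.

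The 10 genes lie on 8 chromosomes (GRCh38, Gencode v44). The RSK genes are RPS6KA1 (chr1:26529761-26575030, plus strand, coding length 2205 nt in 22 coding exons), RPS6KA2 (chr6:166409364-166906451, minus strand, 2199 nt, 21 exons) and RPS6KA3 (chrX:20149911-20267519, minus strand, 2220 nt, 22 exons). The MSK genes are RPS6KA4 (chr11:64359148-64372215, plus strand, 2316 nt, 17 exons) and RPS6KA5 (chr14:90847861-91060641, minus strand, 2406 nt, 17 exons). The S6K genes are RPS6KB1 (chr17:59893046-59950574, plus strand, 1575 nt, 15 exons) and RPS6KB2 (chr11:67428460-67435401, plus strand, 1446 nt, 15 exons). MKNK1 (chr1:46557407-46616843, minus strand, 1236 nt, 11 exons), MKNK2 (chr19:2037465-2051244, minus strand, 1395 nt, 13 exons) and PDCD4 (chr10:110871795-110900006, plus strand, 1407 nt, 11 exons) have the shortest reading frames. The paralogs are told apart by reads of this length: stretches of 25 nt shared with the reading frame of another gene numbered 0 in 9 of the genes, and in RPS6KB1 they were 125 of 1551 (8.06%), shared with the annotated gene ENSG00000267318.

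The bases around the transcription start are shown because mRNAs that begin with a cytosine and a run of pyrimidines, the 5′ terminal oligopyrimidine (5′TOP) mRNAs, are the known targets of translational control by mTORC1. Each line gives 10 bases before and 20 bases from the start that RefSeq annotates on GRCh38.p14, read on the gene's own strand, and capitals mark a pyrimidine run that begins with C at the start base. None of the 10 genes had C followed by at least 4 bases that are each C or T at that position (0 of 10, against 503 of 8717 tested genes with a window, 5.8%, and 43 of 67 cytosolic ribosomal protein genes, 64.2%). The longest runs among them were the 2 bases of RPS6KA3 and MKNK1. RPS6, EIF4B and EEF2, genes of the translation machinery chosen for comparison after their ribosome density was seen to fall, carried runs of 9, 5 and 7 bases. The windows hold annotated starts, and the starts used in HCT116 cells were not measured.
RPS6KA1 (chr1:26529751-26529780, plus strand): ggagggagccgaagtgctagtgccgcggcg
RPS6KA2 (chr6:166862506-166862535, minus strand): tgcagcgtttactctgccaaagtcgcagta
RPS6KA3 (chrX:20267071-20267100, minus strand): agcccagcccCTgggtgcgcgcggcggtgg
RPS6KA4 (chr11:64359152-64359181, plus strand): ggaagcgcccgccccggccggagccgccat
RPS6KA5 (chr14:91060622-91060651, minus strand): gtttggttgcgcggtactagcggtgcccgc
RPS6KB1 (chr17:59893111-59893140, plus strand): aggcgcagacgcactgagcctaagcagccg
RPS6KB2 (chr11:67428484-67428513, plus strand): cgggactgtcagtcagtgcgcggccaggta
MKNK1 (chr1:46604249-46604278, minus strand): ccccctggatCTagcaccgcctcttccgcg
MKNK2 (chr19:2051225-2051254, minus strand): gcgacgcgccCggctcctctcagcggcggt
PDCD4 (chr10:110871918-110871947, plus strand): gagaagggccagagactctccgaggcggcg
RPS6 (chr9:19380217-19380246, minus strand): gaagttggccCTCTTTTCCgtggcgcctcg
EIF4B (chr12:53006446-53006475, plus strand): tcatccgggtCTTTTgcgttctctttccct
EEF2 (chr19:3985444-3985473, minus strand): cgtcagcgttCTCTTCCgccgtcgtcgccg

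Levels between genes were compared as normalized counts per kb of coding length, mean ± SD over 3 libraries. In DMSO input, MKNK2 was by far the most abundant of the 10 mRNAs at 463 ± 206 per kb, higher than 93.4% of tested genes, and RPS6KA2 the least at 15.1 ± 3.64 per kb, higher than 15.1% of them. The median of all 10588 tested genes with a coding length was 58.0 per kb. RPS6KB1 (124 ± 23.5), RPS6KB2 (116 ± 20.3), PDCD4 (112 ± 41.0) and RPS6KA4 (112 ± 32.2) followed MKNK2, and their libraries overlapped one another. RPS6KA1 at 74.9 ± 21.6 and RPS6KA3 at 61.1 ± 11.6 overlapped as well, and RPS6KA1 also reached into the range of RPS6KA4. MKNK1 (38.2 ± 1.37) and RPS6KA5 (31.8 ± 12.7) lay below them and were not separated from each other. MKNK2, RPS6KA2 and the pair of MKNK1 and RPS6KA5 were each separated from the neighbours in this order in all 3 libraries.

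The order in DMSO footprints was different, with PDCD4 at the top at 3328 ± 1227 normalized counts per kb, higher than 90.8% of genes, although its input level was close to that of RPS6KB2. RPS6KA2 was again lowest, at 15.1 ± 2.45 per kb and above 3.5% of genes, where the median of all genes was 327. RPS6KB2 was second lowest at 156 ± 19.5 per kb, far from its paralog RPS6KB1 at 817 ± 69.3. MKNK2 (967 ± 332), RPS6KB1 and RPS6KA3 (801 ± 24.6) overlapped below PDCD4, and RPS6KA1 (433 ± 138), RPS6KA5 (322 ± 78.5), MKNK1 (308 ± 53.1) and RPS6KA4 (306 ± 47.6) overlapped below these. In the plot of levels by library, these groups appear as steps of the footprint panel that do not touch in DMSO, with RPS6KA2 and PDCD4 at the ends.

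**Figure D1:**
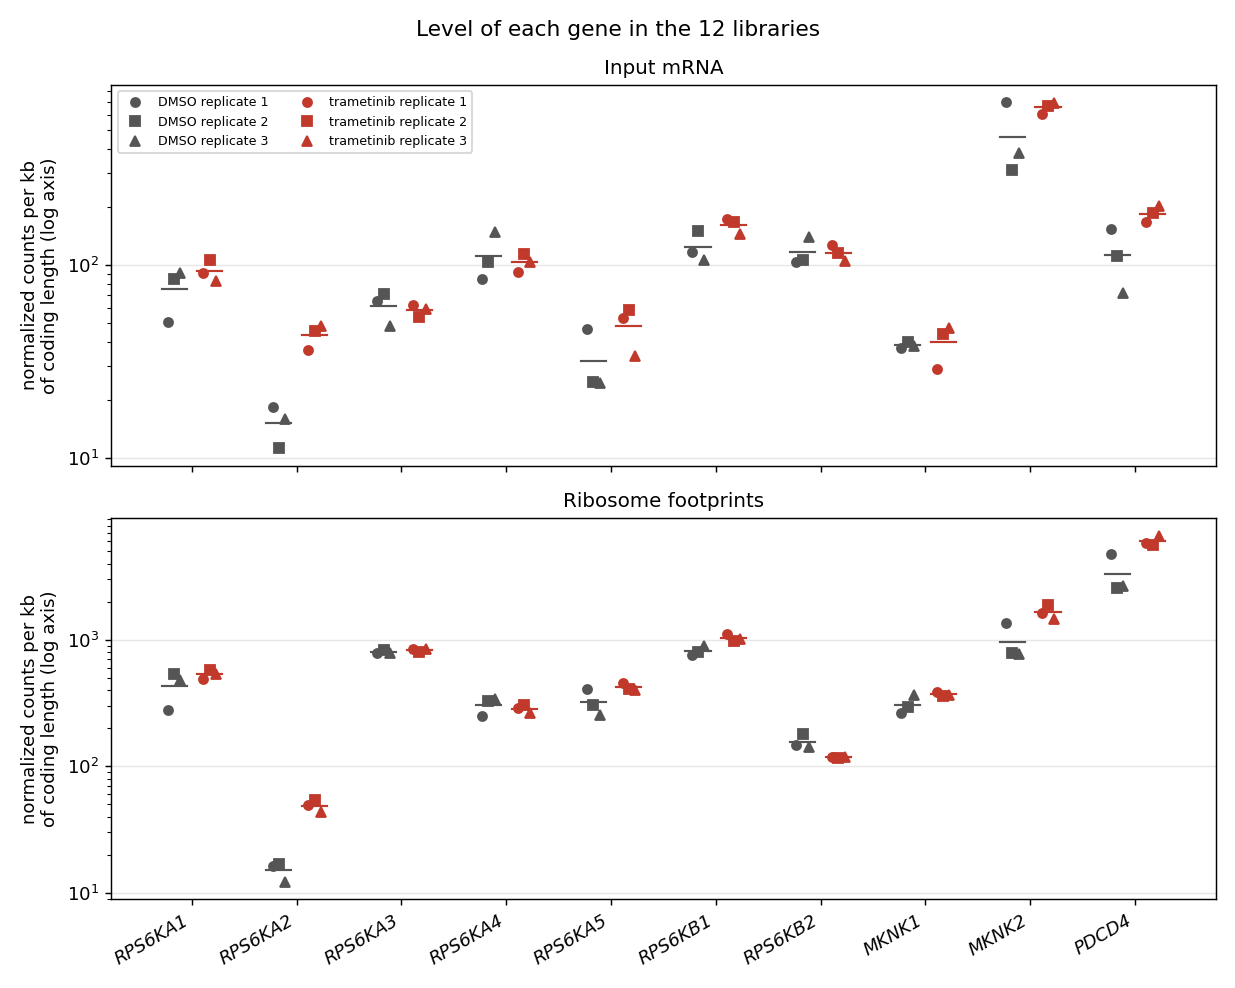
Level of each of the 10 genes in each library, as normalized counts per kb of coding length on log axes, for input mRNA (top) and ribosome footprints (bottom). Grey marks are DMSO and red marks trametinib, marker shapes are replicates 1 to 3, and lines are group means; RPS6KA2 rose from 15.1 to 43.2 per kb in input and from 15.1 to 48.9 per kb in footprints.

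The first comparison asked whether MEK inhibition changed the abundance of the mRNAs of these kinases. RPS6KA2 and PDCD4 rose in trametinib input, by 2.85-fold and 1.64-fold, and no gene of the 10 fell. In bulk RNA, more mRNA per cell and more cells that express a gene cannot be told apart. These 2 of 10 genes that were higher compare with 15.4% of the 10663 genes tested, the 0 of 10 that were lower with 16.7%, and both together with 32.1%. All 10 genes passed the filter on low counts. Their median change was 0.34 on the log2 scale, beside -0.0014 for all genes. An unadjusted p under 0.05 was found for 4 of the 10, all with a positive change, beside 4579 of the 10663 genes tested. DESeq2 also called 0 of the 10 lower. The trametinib libraries lay entirely above the DMSO libraries for 2 genes and entirely below for 0, against 23.5% and 23.2% of all genes.

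Among the RSK genes, RPS6KA2, which encodes the isoform RSK3, had 40.3, 24.5 and 34.9 normalized input counts in DMSO replicates 1 to 3. In trametinib it had 79.1, 100.2 and 106, so that the groups were far apart. Its log2 change was 1.51 (SE 0.23, edgeR quasi-likelihood test, Benjamini-Hochberg adjusted p = 3.56e-04), the largest of the 10 genes in input. Without DMSO replicate 1 it was 1.68. RPS6KA1, which encodes RSK1, had 111, 185 and 199 normalized input counts in DMSO and 199.8, 232 and 183 in trametinib. DMSO replicate 1 was its lowest library and the other DMSO values lay within the trametinib range, with a log2 change of 0.31 (SE 0.21, edgeR adjusted p = 0.288) that was 0.091 without DMSO replicate 1. RPS6KA3, which encodes RSK2, had 144, 156 and 107 counts in DMSO and 137, 119 and 131 in trametinib, which overlapped. The log2 change of RPS6KA3 was -0.074, with a 95% interval from -0.47 to 0.32.

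RPS6KA5, which encodes MSK1, was split within DMSO input, at 112, 59.1 and 58.8 normalized counts, against 127, 139.8 and 81.4 in trametinib. Only DMSO replicate 1 reached the trametinib range, and the log2 change of 0.60 (SE 0.27) did not pass the test (edgeR adjusted p = 0.115). Without this library the change was 0.98 and passed (adjusted p = 0.00366). It passed in no other fit with 1 library left out (adjusted p from 0.0609 to 0.352). RPS6KA4, which encodes MSK2, had 195, 240.0 and 341 counts in DMSO and 213, 264 and 241 in trametinib. These overlapped, with a log2 change of -0.11 and a 95% interval from -0.55 to 0.33, and the change was -0.28 without DMSO replicate 1.

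Neither S6K mRNA passed the test in input. RPS6KB1, which encodes S6K1, had 183, 237 and 166 normalized counts in DMSO and 271, 262 and 229 in trametinib, where DMSO replicate 2 lay above the lowest trametinib library. Its log2 change was 0.38 (SE 0.17, edgeR adjusted p = 0.115), and 0.54 without DMSO replicate 2 (adjusted p = 0.0424). In the other fits with 1 library left out it was 0.28 to 0.44 and did not pass (adjusted p from 0.168 to 0.292). RPS6KB2, which encodes S6K2, had 150.1, 153 and 202 counts in DMSO and 183, 166 and 151 in trametinib. The groups covered the same range, with a log2 change of -0.014 and a 95% interval from -0.39 to 0.36.

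MKNK2, which encodes MNK2, had 973, 434 and 529 normalized input counts in DMSO and 850.1, 935 and 961 in trametinib. DMSO replicate 1 was the highest of the 6 libraries, while the other two DMSO libraries lay far below every trametinib library. The log2 change was 0.50 (SE 0.24, edgeR adjusted p = 0.130) with all libraries and 0.93 without DMSO replicate 1 (adjusted p = 1.17e-04). In the other fits with 1 library left out it was 0.29 to 0.55 and did not pass (adjusted p from 0.183 to 0.390). MKNK1, which encodes MNK1, had 45.8, 49.1 and 46.8 counts in DMSO and 35.5, 53.9 and 58.3 in trametinib, on both sides of the DMSO values. The log2 change of MKNK1 was 0.056, with a 95% interval from -0.45 to 0.56.

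PDCD4 had 216, 156 and 101 normalized input counts in DMSO and 234, 259.8 and 285 in trametinib. Every trametinib library was above every DMSO library, although DMSO replicate 1 came close. The log2 change was 0.72 (SE 0.23, edgeR adjusted p = 0.0311), and 1.01 without DMSO replicate 1 (adjusted p = 6.00e-04). The call was lost in each of the other 5 fits with 1 library left out, with an adjusted p of 0.0865 without DMSO replicate 2 and 0.0535 without DMSO replicate 3. Without trametinib replicates 1, 2 and 3 it was 0.0528, 0.0894 and 0.106.

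**Figure D2:**
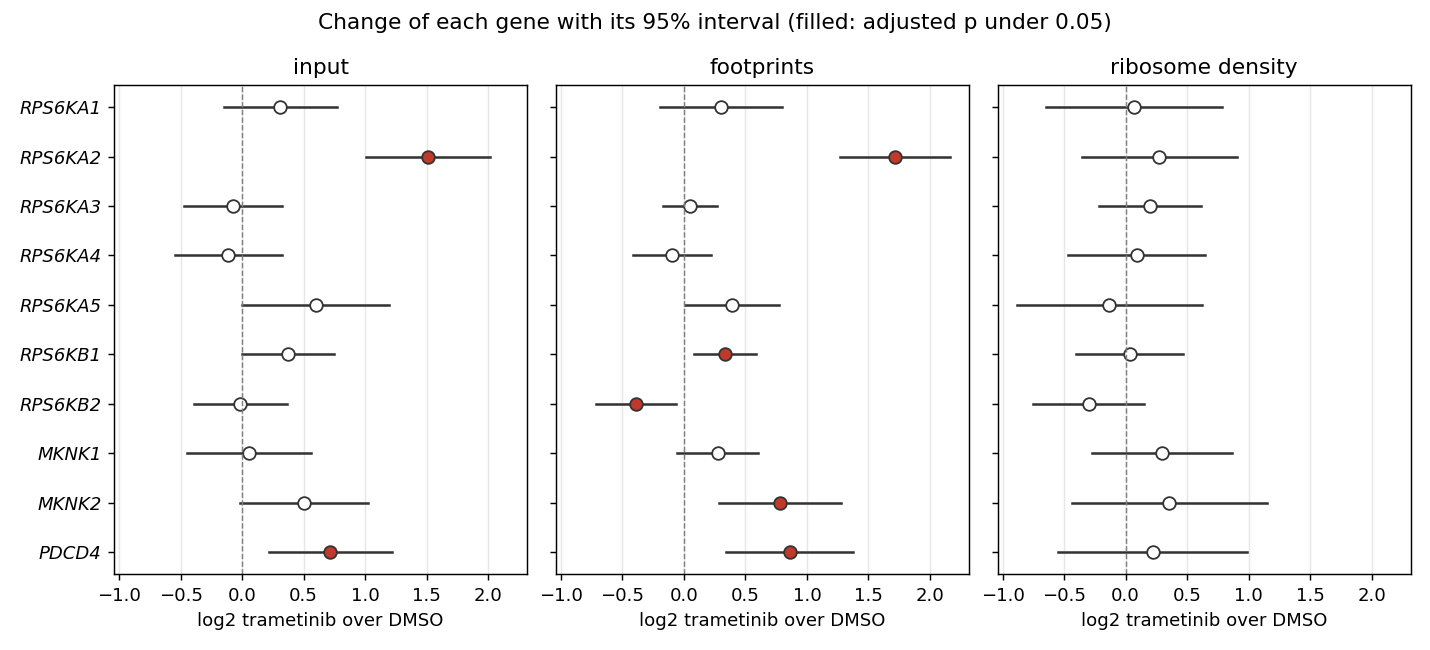
Log2 change of trametinib over DMSO (horizontal axis) for each of the 10 genes (rows) in input, footprints and ribosome density, with 95% intervals from the edgeR fits. Filled points passed an adjusted p of 0.05: 2 genes in input, 5 in footprints and 0 in ribosome density, and RPS6KA2 stands farthest from 0 in the first pair of panels.

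The second comparison asked whether the footprints of these mRNAs rose or fell relative to those of other mRNAs, without dividing by input. Because of this scaling, a rise need not mean more ribosomes on the mRNA in absolute terms. RPS6KA2, PDCD4, MKNK2 and RPS6KB1 rose in footprints, by 3.28-fold, 1.82-fold, 1.72-fold and 1.26-fold, and RPS6KB2 fell to 0.762 of its DMSO level. The 2 S6K paralogs thus moved in opposite directions, and both calls were lost in most fits with 1 library left out. The 4 genes that were higher compare with 23.9% of the 10663 genes tested, the 1 gene that was lower with 25.6%, and both together with 49.4%. The median change of the 10 genes was 0.32 on the log2 scale, beside -0.013 for all genes. Trametinib libraries lay entirely above DMSO for 4 genes and entirely below for 1, against 29.3% and 30.3% of all genes.

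RPS6KA2 had 35.5, 36.9 and 26.9 normalized footprint counts in DMSO and 109, 119 and 95.6 in trametinib. These came from 39, 23 and 30 raw counts in DMSO and 144, 117 and 82 in trametinib, the fewest of the 10 genes, and the groups did not come near each other. The log2 change was 1.72 (SE 0.20, edgeR quasi-likelihood test, Benjamini-Hochberg adjusted p = 1.66e-04). RPS6KA2 was the only one of the 10 genes whose input and footprint calls held in every alternative fit and with each library left out, with log2 changes that stayed between 1.33 and 1.68 in input and between 1.59 and 1.81 in footprints when 1 library was omitted.

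The footprints of the other RSK genes did not pass the test. RPS6KA3 had 1760.5, 1839 and 1734 normalized footprint counts in DMSO and 1881, 1772 and 1862 in trametinib, with little spread in either group. It changed by 0.048 on the log2 scale with a 95% interval from -0.17 to 0.27, the narrowest of the 10 genes. RPS6KA1 had 613, 1191 and 1060.1 counts in DMSO and 1072, 1275 and 1177 in trametinib. DMSO replicate 1 alone was low, and the log2 change was 0.30 (SE 0.22, edgeR adjusted p = 0.276) with all libraries and 0.067 without it.

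RPS6KA5 had 980.0, 731 and 609.5 normalized footprint counts in DMSO and 1091, 989.8 and 960.0 in trametinib. DMSO replicate 1 again was high and lay within the trametinib range, as in input. The log2 change of 0.39 (SE 0.17, edgeR adjusted p = 0.0839) missed the threshold. It passed without DMSO replicate 1 (0.61, adjusted p = 4.82e-04), with the replicate number as a block (0.41, adjusted p = 0.0298) and with library totals (0.57, adjusted p = 0.0181). It passed in no other fit with 1 library left out (adjusted p from 0.133 to 0.227). RPS6KA4 had 583, 755 and 788 counts in DMSO and 670.0, 708 and 609 in trametinib, which overlapped. Its log2 change was -0.096, with a 95% interval from -0.41 to 0.22. It was -0.22 without DMSO replicate 1, and scaling by library totals turned it to 0.079.

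RPS6KB1 had 1192, 1263 and 1407 normalized footprint counts in DMSO and 1744, 1534 and 1592 in trametinib. The trametinib libraries were all higher, at a log2 change of 0.33 (SE 0.11, edgeR adjusted p = 0.0333). Its call was lost without DMSO replicate 2 (adjusted p = 0.0814), without trametinib replicates 1 (0.152), 2 (0.0649) or 3 (0.0700), and without the filter on low counts (0.0515). RPS6KB2 had 211, 258 and 207 counts in DMSO and 173, 169 and 171 in trametinib, so that the trametinib libraries were close together and all lower. The log2 change was -0.39 (SE 0.14, edgeR adjusted p = 0.0475). This call was lost without DMSO replicates 2 (adjusted p = 0.156) or 3 (0.0529) and without trametinib replicates 1 (0.130), 2 (0.130) or 3 (0.102). It was also lost with the replicate block (adjusted p = 0.0679), with DESeq2 (0.0634), without the filter (0.0569) and with library totals, which moved the change to -0.22 (adjusted p = 0.244).

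MKNK2 had 1883, 1095 and 1069 normalized footprint counts in DMSO and 2281, 2636 and 2055 in trametinib. DMSO replicate 1 was again far above the other DMSO libraries, but here it stayed below every trametinib library. The log2 change was 0.78 (SE 0.22, edgeR adjusted p = 0.0164), and 1.11 without DMSO replicate 1. The call was lost without DMSO replicate 2 (adjusted p = 0.0567) and without trametinib replicate 2 (0.0674). MKNK1 had 324, 364 and 452 counts in DMSO and 478, 447 and 456 in trametinib, where only DMSO replicate 3 reached the trametinib range. Its log2 change was 0.27 (SE 0.15, edgeR adjusted p = 0.148), 0.17 without DMSO replicate 1 and 0.44 without DMSO replicate 3 (adjusted p = 0.0295). In the other fits with 1 library left out it did not pass (adjusted p from 0.232 to 0.326). With library totals it was 0.45 (adjusted p = 0.0312).

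PDCD4 had the most footprints of the 10 genes, with 6675, 3627 and 3747 normalized counts in DMSO and 8246, 7888 and 9380.3 in trametinib. All trametinib libraries were higher than DMSO replicate 1, and they were far above the other DMSO libraries. The log2 change was 0.86 (SE 0.23, edgeR adjusted p = 0.0130), and 1.21 without DMSO replicate 1. Without trametinib replicate 3 it was 0.78 and no longer passed (adjusted p = 0.0550).

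Ribosome density, the ratio of footprints to input for each gene, set the 10 genes far apart. In DMSO, PDCD4 had a log2 density of 2.33 ± 0.36, or 5.03 on the linear scale, higher than 99.3% of tested genes. At the other end, RPS6KA2 had -2.56 ± 0.49 (0.170 linear), higher than 1.7% of genes. RPS6KB2 at -2.14 ± 0.34 (3.2%) and MKNK2 at -1.47 ± 0.19 (8.9%) were also low. RPS6KA4 at -1.09 ± 0.22 stood at 14.9%. RPS6KA1 (-0.049 ± 0.12), RPS6KB1 (0.16 ± 0.35) and MKNK1 (0.43 ± 0.26) lay in the middle, at 47.7%, 56.1% and 67.3% of genes. RPS6KA5 (0.81 ± 0.24) and RPS6KA3 (1.16 ± 0.27) lay above 81.3% and 90.4%.

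Each family of paralogs was spread out along this scale. Of the RSK genes, RPS6KA3 was high, RPS6KA1 in the middle and RPS6KA2 low, and no DMSO replicate of one reached the range of another. RPS6KA5 lay above RPS6KA4, RPS6KB1 above RPS6KB2 and MKNK1 above MKNK2, each time in all 3 DMSO replicates and in all 3 trametinib replicates. RPS6KA2 and RPS6KB2 overlapped, as did MKNK2 and RPS6KA4. PDCD4 was separated from RPS6KA3, its nearest neighbour, in both treatments. These are ratios of counts with different depths behind them, and the order is a description of this cell line.

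**Figure D3:**
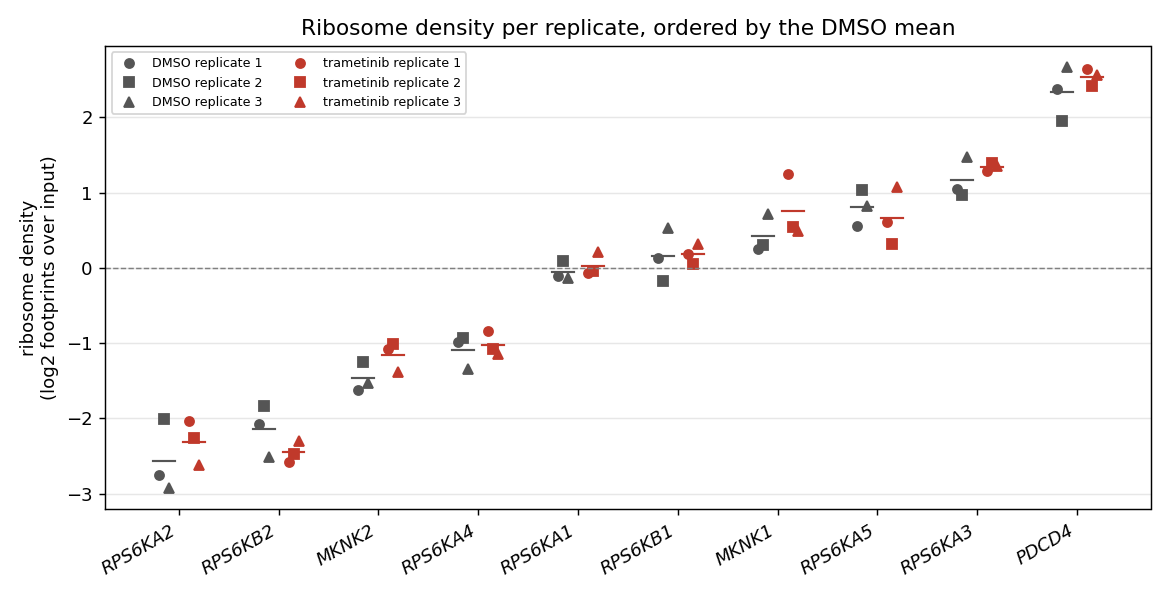
Ribosome density of each of the 10 genes, as log2 of scaled footprints over scaled input (vertical axis), per replicate and ordered by the DMSO mean. Grey marks are DMSO, red marks trametinib and lines group means; the order runs from RPS6KA2 at -2.56 to PDCD4 at 2.33, and the grey and red ranges of each gene overlap.

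The third comparison asked whether ribosome density changed with trametinib. No gene of the 10 passed the test in either direction, by edgeR or by DESeq2. An unadjusted p under 0.05 was found for 0 of 10, beside 939 of the 10663 genes tested. Density calls were rare over all 10663 genes, 0.0938% higher and 0.816% lower or 0.91% in all, so that a count of 0 among 10 genes is near this background. The replicates of the 2 treatments overlapped for all 10 genes, against 11.8% of all genes entirely above and 6.56% entirely below. The median change of the 10 genes was 0.14 on the log2 scale, beside 0.070 for all genes. Input, footprints and density share their libraries and are not independent of each other.

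In the main fit, which did not pair input and footprints of the same replicate, only larger density changes could have been detected. Its intervals were narrowest for RPS6KA3, from -0.21 to 0.61 around a log2 change of 0.20. They were widest for MKNK2, from -0.44 to 1.15 around 0.36. The MKNK2 log2 densities per replicate had an SD of only 0.19 in DMSO and 0.20 in trametinib. The widths are thus those of the unpaired fit and do not rank the spread of density between replicates. For RPS6KA2, log2 densities were -2.75, -2.00 and -2.92 in DMSO and -2.04, -2.26 and -2.62 in trametinib, a change of 0.27 with an interval from -0.35 to 0.90. The density of this gene overlapped between treatments while both its input and its footprints rose. PDCD4 had 2.38, 1.95 and 2.67 in DMSO and 2.64, 2.42 and 2.56 in trametinib, a change of 0.22 with an interval from -0.55 to 0.99.

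The negative estimates were those of RPS6KB2 and RPS6KA5. RPS6KB2 had log2 densities of -2.08, -1.83 and -2.51 in DMSO and -2.58, -2.48 and -2.29 in trametinib, a change of -0.30 (SE 0.21, edgeR adjusted p = 0.775). DMSO replicate 3 lay as low as the trametinib replicates. RPS6KA5 changed by -0.13 with an interval from -0.89 to 0.62. For MKNK1 the estimate was 0.29, for RPS6KA4 0.090, for RPS6KA1 0.066 and for RPS6KB1 0.035, each with an interval that spans 0.

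Within a family, the share of each paralog in the summed level per kb gives its weight among its relatives. RPS6KA2 made up 13.7, 6.74 and 10.3% of the RSK input level in DMSO and 19.1, 22.3 and 25.3% in trametinib. Its share in RSK footprints was much smaller, 1.49, 1.21 and 0.961% in DMSO and 3.57, 3.77 and 3.07% in trametinib. In both assays every trametinib library had the larger share, and in both treatments nearly all RSK footprints came from RPS6KA1 and RPS6KA3. RPS6KA3 held the largest part of the footprints, 64.7% in DMSO and 58.8% in trametinib on average, whereas RPS6KA1 had the larger mean share of input, 49.0 ± 10.6% and 47.8 ± 3.96%. In DMSO input replicate 1, RPS6KA3 was ahead, at 48.6% against 37.7% for RPS6KA1.

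The S6K pair was nearly even in input, where RPS6KB2 held 47.2, 41.2 and 57.0% of the level in DMSO and 42.3, 40.9 and 41.8% in trametinib. In footprints RPS6KB2 held only 16.2, 18.2 and 13.8% in DMSO and 9.74, 10.7 and 10.5% in trametinib. RPS6KB1 thus supplied most S6K footprints in every library, and its share was larger in each trametinib library than in any DMSO library. MKNK2 made up 91.5 ± 3.19% of the MNK level in DMSO input and 94.3 ± 1.03% in trametinib input. In footprints its share was 74.7 ± 8.21% and 81.6 ± 2.08%, with overlap between the treatments. RPS6KA5 held 23.0 ± 11.2% of the MSK input level in DMSO and 31.6 ± 6.23% in trametinib. In MSK footprints it held 50.9 ± 9.84% and 59.6 ± 1.94%, and both pairs of ranges overlapped.

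**Figure D4:**
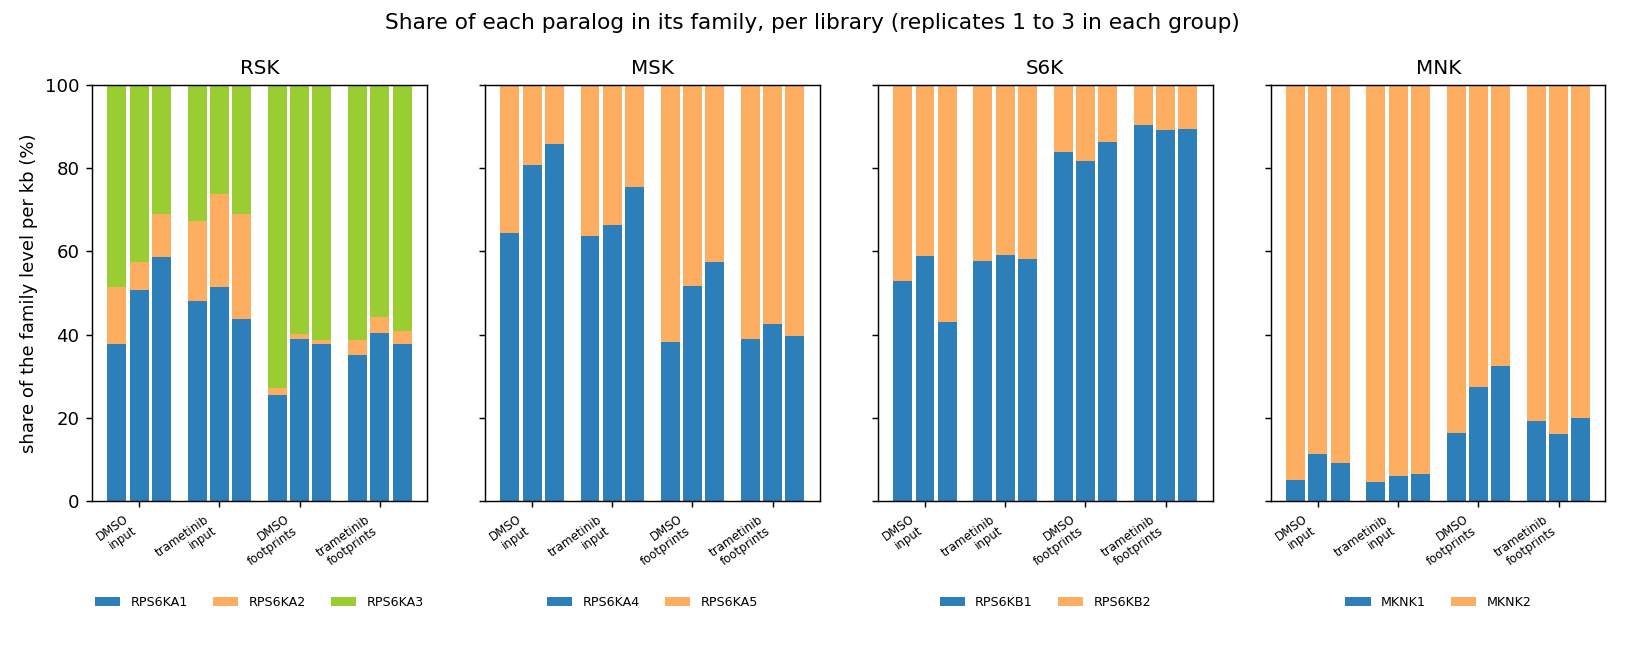
Share (%) of each paralog in the summed level per kb of its family, with 1 bar per library and replicates 1 to 3 side by side in each group. The RPS6KA2 share (orange, RSK panel) grew from 10.3% to 22.2% of input on average, and RPS6KB2 (orange, S6K panel) was near 48.5% of DMSO input and 16.1% of DMSO footprints.

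Genes around the 10 were counted in lists of relatives, upstream regulators and substrates. These counts stand beside 15.4% higher and 16.7% lower of all genes in input and 23.9% and 25.6% in footprints. Of the 10663 genes tested, 4579 had an unadjusted p under 0.05 in input, 6004 in footprints and 939 in density. Of 11 relatives, 6 passed the filter, and RPS6KA6, the RSK gene that is not among the 10, did not. RPS6KC1, a distant member of the S6 kinase family, rose in input from 122 to 182 normalized counts (log2 change 0.58, SE 0.16, edgeR adjusted p = 0.0157) and in footprints from 306 to 489.8 (0.68, SE 0.11, adjusted p = 0.00134). Its input call was lost without trametinib replicate 2 (adjusted p = 0.0951) or 3 (0.0519). MAPKAPK3, a kinase downstream of p38, fell in footprints by 0.41 (adjusted p = 0.0247), a call lost without DMSO replicate 3 or trametinib replicates 1 or 3 (up to 0.122) and with library totals (0.148). AKT1, AKT2, MAPKAPK2 and MAPKAPK5 did not pass in either assay, but with library totals AKT1 and MAPKAPK2 were called higher in footprints, AKT1 also without DMSO replicate 3. In density 0 of the 6 passed by edgeR or DESeq2, and 0 had an unadjusted p under 0.05.

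Of the 8 genes of ERK signaling and PDK1 upstream of the 10, only DUSP6, the ERK phosphatase, changed in input. In footprints DUSP6 fell by 8.27 and PEA15, which binds ERK, by 0.71 (edgeR adjusted p = 0.00508). MAPK3, which encodes ERK1, rose by 0.65 (adjusted p = 0.00201), from 741 to 1165 normalized footprint counts, and MAP2K2, which encodes MEK2, by 0.26 (adjusted p = 0.0475). The MAP2K2 call was lost in 5 of the 6 fits with 1 library left out, all but the one without DMSO replicate 1 (up to 0.166), and with 5 other settings, the replicate block among them (up to 0.0971). With 1 library left out, calls gained included those of MAP2K2 and MAPK3 in input (higher, without DMSO replicate 3) and of KSR1 in footprints (higher, without DMSO replicate 1). PDPK1, which encodes PDK1, was at 101 and 100.3 normalized input counts in DMSO and trametinib. In density 0 of the 8 passed by edgeR or DESeq2, and 0 had an unadjusted p under 0.05.

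Of the 11 tested genes around mTORC1, TSC1 and TSC2, which encode the inhibitory complex, rose in input by 0.55 and 0.46 on the log2 scale (edgeR adjusted p = 0.0278 and 0.0376). MTOR and RHEB, which encode the kinase and its activating GTPase, fell by 0.49 and 0.77 (adjusted p = 0.0327 and 0.00706). In footprints TSC2 rose by 0.58 (adjusted p = 0.00603), and MTOR and RHEB fell by 0.43 and 0.51 (adjusted p = 0.0165 and 0.0173). The 11 genes had a median change of -0.023 in input and 0.0073 in footprints, beside -0.0014 and -0.013 for all genes, and in density 0 of the 11 passed by edgeR or DESeq2, with 0 at an unadjusted p under 0.05. The input calls of TSC1, TSC2 and MTOR were lost when any one of the trametinib libraries or DMSO replicate 2 was left out (up to 0.121, 0.123 and 0.154), and that of MTOR also without DMSO replicate 3. With DESeq2 the input calls of TSC1 (0.0638) and TSC2 (0.0523) were lost, TSC2 also without the filter (0.0569), and with library totals the footprint calls of MTOR (0.121) and RHEB (0.0885). Library totals also added RRAGA and TSC1, so that the footprint count of the list went from 1 higher and 2 lower to 3 higher and 0 lower. Without DMSO replicate 1, DEPTOR was gained as higher in input, and RRAGA as higher and TBC1D7 as lower in footprints. The footprint call of MTOR was also lost without DMSO replicate 2 or any one trametinib library (up to 0.0631), and that of RHEB without DMSO replicates 2 or 3 or trametinib replicates 1 or 3 (up to 0.0686).

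Of 15 tested substrates in the translation machinery and their partners, EEF2, EIF4B and RPS6 had lower density, by 1.23, 1.06 and 1.05 on the log2 scale (edgeR adjusted p = 0.00242, 0.00611 and 0.0163), and 0 had higher density. The median density change of the 15 was 0.025, beside 0.070 for all genes, so that the fall was that of these 3 genes. These are the genes whose start windows are printed above beside those of the 10. RPS6, whose protein is phosphorylated by S6K and RSK, was at 8506 ± 1266 and 9769 ± 458 normalized counts in DMSO and trametinib input and at 21088 ± 2854 and 11082 ± 483 in footprints. Its density call was lost without DMSO input replicate 2 (adjusted p = 0.0546). EEF2, the elongation factor controlled by the eEF2 kinase, rose in input by 0.62 and fell in footprints by 0.69. EIF4B, a cofactor of eIF4A, rose in input by 0.40 and fell in footprints by 0.73.

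EIF4EBP1, EIF4E and NCBP1 fell in both input and footprints. EIF4EBP1, whose protein holds eIF4E in an inactive complex, had the largest change, -1.83 in input and -1.79 in footprints (edgeR adjusted p = 6.32e-04 and 4.23e-04). EIF4E, the cap-binding substrate of the MNK proteins, changed by -0.64 and -0.69 (adjusted p = 0.00728 and 9.20e-04), from 311 ± 36.7 to 199.8 ± 12.0 normalized input counts. NCBP1, a nuclear cap-binding protein gene, fell by 0.46 in input (adjusted p = 0.0435) and by 0.42 in footprints (0.0201). The whole list counted 2 higher and 3 lower genes in input, and in footprints 0 higher and 6 lower, with median changes of -0.082 and -0.28. Without DMSO replicate 1 the footprint count was 1 higher and 9 lower, adding EIF4EBP2 as higher and EIF3B, EIF4G1 and EIF4H as lower, and in input EIF4G1 was added as lower. EIF4EBP2 (0.65, adjusted p = 0.0783) was also called higher in footprints with the replicate block, library totals, DESeq2 and without DMSO replicate 3, and LARP1 lower in input without DMSO replicate 3. EIF4G3, EIF4A2 and EEF2K did not pass in either assay under any of these settings. The input calls of EIF4B and NCBP1 were lost without DMSO replicate 2 or any one trametinib library (up to 0.133 and 0.154), and that of NCBP1 with DESeq2 (0.0614). Its footprint call was lost without DMSO replicates 2 or 3 or trametinib replicates 1 or 2 (up to 0.0887) and with library totals (0.128).

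Of 16 other substrates of RSK and MSK, NR4A1 and NFKBIA rose in input by 1.26 and 0.89, and EPHA2 and HMGN1 fell by 6.01 and 0.47 (edgeR adjusted p = 9.48e-04, 0.00684, 1.07e-07 and 0.0307). NR4A1 is an immediate early transcription factor gene, and HMGN1 encodes a nucleosome binding protein that MSK phosphorylates. In footprints SOS1, NFKBIA and GSK3B rose by 0.79, 0.79 and 0.32, and EPHA2 and YBX1 fell by 6.19 and 0.98. The GSK3B call (adjusted p = 0.0403) was lost in all fits with 1 library left out except the one without DMSO replicate 1 (up to 0.136) and without the filter (0.0633), and the HMGN1 call without DMSO replicate 2 or trametinib replicates 1 or 2 (up to 0.138). NR4A1 (1.12, adjusted p = 0.0518) just missed the threshold in footprints and passed as higher with the replicate block, which made 4 higher genes, and with 5 other scalings, filters or tools. Library totals added CREB1 besides, as higher, and the calls added without DMSO replicate 1 included NR4A1 as higher and BAD as lower. Without DMSO replicate 3 FLNA was added as lower. In input CDKN1B was gained as higher with the replicate block and without DMSO replicate 2. No gene of this list passed in density by edgeR, with 2 at an unadjusted p under 0.05, and DESeq2 called 1, SOS1, higher (adjusted p = 0.0326), as did the edgeR fit with the replicate block. Without both DMSO replicate 1 libraries, YBX1 was called lower in density. The 4 genes of the ubiquitin ligase that degrades PDCD4, BTRC, FBXW11, SKP1 and CUL1, passed in none of the 3 comparisons by edgeR or DESeq2, nor at an unadjusted p under 0.05, with log2 changes between -0.019 and 0.34 in input and between 0.15 and 0.23 in footprints. With library totals 3 of these 4 passed as higher in footprints, and CUL1 also without DMSO replicate 3.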

How the data were processed

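The authors kept an aliquot of each lysate as input RNA, took footprints from the monosome fraction of a sucrose gradient after RNase I digestion, and depleted rRNA from both. According to the methods, reads that aligned to rRNA or tRNA with Bowtie (1.2.2 in the submitters' processing notes) were discarded, the others were mapped to the basic Gencode V38 transcripts, and footprint-sized reads inside the open reading frames of a single gene symbol were counted. A read that fits several symbols was thus left out. Raw counts, all whole numbers, are what the authors deposited for 12 libraries and 15798 genes. The deposited normalized columns are a signal: in 12 of 12 libraries each value was the count times a constant, and they served only for this check. Columns with the authors' own comparisons (fold changes and adjusted p-values from DESeq2, 1.46.0 in the processing notes, and marks for 5′TOP and stemness genes) were not used. The number of columns of per-sample values left unused was 0, and 0 pairs of libraries held identical counts.

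The labels gave each library its group and replicate number. Tests covered the 10663 genes that reached 10 counts in 3 or more of the 6 input libraries. Raw counts were scaled by TMM and tested with edgeR 4.0.16 (quasi-likelihood F test) in R 4.3.3, within the 6 libraries of each assay, and as the interaction of assay and treatment over the 12 libraries for ribosome density. P-values were adjusted by Benjamini-Hochberg over all genes tested, and an adjusted p under 0.05 was called. Normalized counts are counts per TMM-scaled library at the mean library size of the assay. Coding lengths and positions are those of the canonical transcript in Gencode v44, and start windows come from RefSeq (GRCh38.p14), where all 10 genes had an entry. Ribosome density per replicate pairs input and footprints of the same treatment and number. The density test paired them only in the alternative with a dish replicate block. Median standard errors of a log2 change over all genes were 0.216 in input, 0.152 in footprints and 0.266 in density, and 95% intervals come from the fits.

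The deviations of same-numbered DMSO and trametinib libraries correlated weakly in footprints (r = 0.155, 0.146 and 0.322 over 5332 genes). In input the values were 0.0706, 0.0623 and 0.416. Libraries of unlike number were not compared across treatments, so a pairing by number was not tested. The replicate block is given beside footprint calls that it changes. The labels give only equal numbers. Alternatives were other scalings (median of ratios, library totals), other filters, DESeq2 1.42.0 (likelihood ratio test), limma-trend (limma 3.58.1, prior count 2), the replicate block, an adjusted p threshold of 0.1 and each library left out. The scripts were tested on simulated data.

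The 10 genes and the gene lists were chosen with earlier results of these data known. All 10 are named with their values. From each list, up to 4 genes past the threshold are named per comparison in order of absolute log2 change, with a mean of at least 50 normalized counts, and counts of 5 or fewer are named in full. For each of the 10 genes, the 2 genes of most similar pattern were sought among 4768 genes with a mean of at least 100 normalized counts in each assay. Results of some other genes are not reported here.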

Additional observations from a re-analysis of the deposited data

How the results depend on the processing

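No density change of the 10 genes passed under any alternative, and the RPS6KA2 calls held under every one. With the replicate block, 4 genes rather than 2 were higher in input, adding RPS6KA5 (adjusted p = 0.0235) and MKNK2 (0.0173), and in the paired fit of footprints 0 genes rather than 1 were lower; it added RPS6KA5 there and changed no other call. Footprints had 0 lower genes also with library totals, without the filter and with DESeq2, where RPS6KB2 did not pass, and with library totals 6 genes rather than 4 were higher, adding RPS6KA5 and MKNK1. With 1 library left out, 1 to 4 genes were higher and 0 lower in input, 2 to 5 higher and 0 to 1 lower in footprints, and 0 in density, also without both DMSO replicate 1 libraries, an alternative chosen after seeing the data. The sign of small changes depended on the setting. The RPS6KA4 footprint change was 0.079 with library totals, the RPS6KA1 density change -0.00576 with median of ratios scaling and -0.00655 with DESeq2, and that of RPS6KB1 -0.0363, -0.0360 and, with the filter over 12 libraries, -0.000299. With 1 library left out, input changes ranged from -0.22 to 0.043 for RPS6KA3, -0.28 to 0.14 for RPS6KA4, -0.0895 to 0.14 for RPS6KB2 and -0.0834 to 0.25 for MKNK1, and the footprint change of RPS6KA4 from -0.22 to 0.00346. Density changes ranged from -0.17 to 0.29 for RPS6KA1, -0.19 to 0.26 for RPS6KA4, -0.51 to 0.0793 for RPS6KA5, -0.13 to 0.11 for RPS6KB1, -0.0676 to 0.67 for MKNK2 and -0.0718 to 0.57 for PDCD4. Over all genes, library totals moved the median footprint change to 0.16 and the calls from 2545 higher and 2727 lower to 3570 and 1951, and the median density change to 0.18. Density calls over all genes, 10 higher and 87 lower, were 5 and 107 with median of ratios scaling, 27 and 78 with library totals, 37 and 150 with DESeq2, 31 and 127 with the dish replicate block and 30 and 110 at an adjusted p of 0.1. The cause was not tested. Input depth limits what could be seen: the lowest gene, RPS6KA2, had 27 to 44 raw input counts per DMSO library.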

Other observations

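Genes whose pattern over the 12 libraries was most like that of each of the 10 genes were sought by Pearson's r of log2 normalized counts, centred within each assay. The points share libraries and one treatment, so these values are a description only. RPS6KA2 was closest to CDH3, which encodes P-cadherin, at 0.995, and to ADAR, the RNA editing enzyme gene, at 0.992. PDCD4 was closest to CCDC186 (0.974) and SOS2 (0.973), which encodes an exchange factor for RAS. Among the genes closest to MKNK2 was ADIRF, at 0.967. RPS6KA1 was closest to HECTD3 (0.976) and SLC35B2 (0.965), and RPS6KB1 to LANCL1 (0.971) and the protease gene ADAM10 (0.949). RPS6KA4 was closest to PTGES2 (0.956) and RPAP1 (0.946), RPS6KA5 to SEL1L3 (0.935) and SERPINB1 (0.931), and RPS6KB2 to SELENOO (0.934) and PPP4C (0.875). RPS6KA3 was closest to the kinase gene PKN2 (0.913) and to NAA35 (0.881). MKNK1 had the lowest values of the 10, closest to DERA (0.851) and HIP1 (0.778).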
